A study of Mus musculus with 4 samples.

Results

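The 9 genes described here encode retinoid carriers and accessory proteins of the visual cycle: Rlbp1, Rgr, Rrh, Rdh10, Dhrs3, Abca4, Stra6, Ttr and Rbp4. They were chosen by name, as proteins that bind, move, flip or reduce retinoids in the retinal pigment epithelium (RPE), Müller glia and photoreceptors, and all 9 were present among the 22863 genes of the table. RNA-seq compared posterior eyes of C3H mice in 2 conditions at the same time of day. The mice were C3H/f+/+, a melatonin-producing strain without the Pde6b mutation that causes retinal degeneration in other C3H mice. Subjective day mice stayed in darkness, for 18 hours by the stated methods, until circadian time 6 (another passage names a longer darkness for this group), and objective day mice saw light in the morning and then had 1 hour of darkness until zeitgeber time 6. Each condition had 2 samples, and each sample pooled 4 eyes of 2 mice, a female and a male, dissected down to sclera, choroid, RPE and retina by taking off the lens and the front of the eye. The age of these mice was not given in the sources used here.

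In the visual cycle, light turns 11-cis retinal into all-trans retinal inside photoreceptors, all-trans retinal is cleared and reduced to retinol, and the RPE converts retinol back to 11-cis retinal. Carriers keep these poorly soluble, reactive molecules in solution and present them to enzymes, while the RPE also takes up fresh retinol from the blood through a dedicated receptor. The comparison asked whether transcripts of these proteins differed between mice that had seen light that day and mice kept in the dark.

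None of the 9 genes differed between objective and subjective day at an adjusted p under 0.05 in limma's test, and 1 of the 9, Stra6, had an unadjusted p under 0.05. Limma was the only test run on the whole table, and its calls under other settings, some of which include Stra6, are given further below. Across the 17784 genes tested, 8.51% passed the adjusted threshold, 7.45% as lower and 1.06% as higher in objective day, and 25.4% had an unadjusted p under 0.05. All 9 genes lay above the filter on low values. Log2 fold changes, given here as objective day over subjective day on a log2(value + 1) scale, ran from -0.17 for Rbp4 to 0.24 for Stra6, with 5 of 9 above 0. Their median was 0.0024, compared with 0.015 over all genes tested. The 95% interval of each of the 9 genes stayed within a 2-fold change in either direction.

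The deposited values per gene carry decimals and have nearly equal totals (33278417 to 35236783), so they are taken as counts adjusted to a common size and called adjusted counts here. How they were adjusted was not stated, whole reads could not be recovered from them in all samples, and the depth is therefore not known exactly. Low values taken as single reads had a median of 0.929 to 1.11, depending on the sample. Replicate samples had Pearson correlations of 0.991 in subjective day and 0.993 in objective day across genes, and both pairs differed by more than sampling noise. With 2 samples against 2, the smallest p of an exact two-sided permutation test is 0.333, so calls rest on limma's pooling of variance over genes. Replicates were separate pools of mice. Across all genes log2 fold changes were higher at higher transcript GC content (Spearman correlation 0.583 over genes that are not independent of each other). Genes with 40 to 45% GC had a median of -0.21, and those with 55 to 60% GC a median of 0.13. For this reason the fold change of each of the 9 genes is also given with the GC trend of each sample removed. In RNA of the dissected posterior eye, a mixed tissue, fewer cells of a type and less RNA per cell cannot be told apart.

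Upstream sequences of the 3 most abundant of these transcripts with an entry in the RefSeq promoter table (GRCm38.p6) are shown, since the text returns to their levels. The windows of 250 bases before each annotated start were searched on both strands for TAATCC, the core recognised by the photoreceptor and RPE factors CRX and OTX2, and for CACGTG, the E-box of the circadian clock. Capitals mark TAATCC or its reverse complement, and no CACGTG was there to overlap it. The stretch printed for Rgr is chr14:37049015-37049264 (minus strand), that for Abca4 is chr3:122044210-122044442 (plus strand) and that for Rlbp1 is chr7:79387049-79387277 (minus strand), each ending before the GENCODE M21 gene.
Rgr: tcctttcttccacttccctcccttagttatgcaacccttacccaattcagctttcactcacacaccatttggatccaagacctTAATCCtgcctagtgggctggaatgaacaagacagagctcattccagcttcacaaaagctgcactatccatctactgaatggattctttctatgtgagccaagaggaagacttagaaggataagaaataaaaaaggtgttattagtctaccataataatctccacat
Abca4: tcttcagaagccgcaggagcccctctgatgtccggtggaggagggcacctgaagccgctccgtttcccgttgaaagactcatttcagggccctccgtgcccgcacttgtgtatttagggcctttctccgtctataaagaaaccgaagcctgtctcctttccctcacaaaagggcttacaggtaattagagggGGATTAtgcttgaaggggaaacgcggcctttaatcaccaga
Rlbp1: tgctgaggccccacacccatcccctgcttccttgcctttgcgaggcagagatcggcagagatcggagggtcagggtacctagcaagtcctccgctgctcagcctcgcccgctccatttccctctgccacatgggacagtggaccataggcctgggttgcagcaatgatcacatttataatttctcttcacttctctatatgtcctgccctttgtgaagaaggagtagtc
TAATCC was found in 2 of the 13 windows listed for 7 of the 9 genes, 1 of Rgr and 1 of Abca4, but in none of Rlbp1, and in 6.25% of all 32851 windows of that length in the table. CACGTG was found in none of the 13 windows and in 6.02% of all windows. Such a match is a description of letters, and binding was not measured.

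The 9 genes differed widely in level. Per kilobase of annotated exon, Ttr was the most abundant, with adjusted counts of 21277 to 27452 over the 4 samples, and ranked above 99.8% of the genes tested. Abca4 (5677 to 6327), Rgr (5138 to 6113) and Rlbp1 (4964 to 6055) followed, and their ranges overlapped, so the order among these 3 did not exceed the spread between samples. Dhrs3 (1431 to 1676), Rdh10 (1091 to 1312) and Stra6 (760 to 1052) came next, without overlap between neighbours. Rrh (265 to 278) and Rbp4 (66.9 to 125) were the least abundant per length. Length changes part of this order. Divided by the longest transcript instead of all exon bases, Abca4 had a mean of 9831 per kilobase, Rlbp1 of 7588 and Rgr of 5679, while Stra6 at 1711 lay above Rdh10 at 1404.

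**Figure D1:**
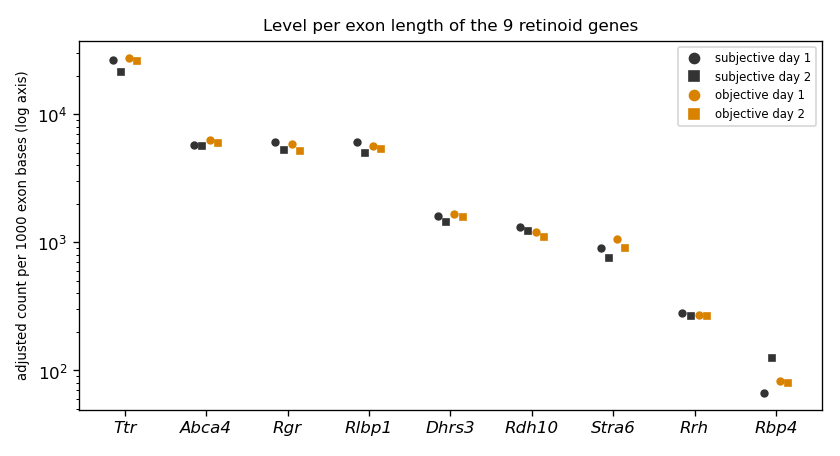
Adjusted counts per kilobase of exon (y axis, log scale) of the 9 genes, ordered by mean level, with 1 point for each of the 4 samples. Ttr lies highest at 21277 to 27452, Abca4, Rgr and Rlbp1 overlap between 4964 and 6327, and Rbp4 lies lowest.

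Rlbp1 (ENSMUSG00000039194) encodes CRALBP, the carrier of 11-cis retinoids in RPE and Müller glia. It lies on the minus strand of chromosome 7 from 79374870 to 79387048 in GRCm38. Its adjusted count was 17887 and 14665 in the subjective day pair against 16676 and 15783 in the objective day pair. The 2 objective day samples lay between the 2 subjective day samples, and means were 16276 ± 2278 (SD, n = 2) in subjective day against 16230 ± 631 (SD, n = 2) in objective day. The difference was 0.168% on the log2 scale (95% interval -15 to 18%, limma adjusted p = 0.992), so the samples do not show that the level stayed the same. With the GC trend removed the log2 fold change was -0.13 (limma, adjusted p = 0.623).

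Rgr (ENSMUSG00000021804) and Rrh (ENSMUSG00000028012) encode opsin relatives that bind all-trans retinal. Rgr is the RPE and Müller glia opsin that forms 11-cis retinal in the light, and Rrh encodes peropsin of the RPE microvilli. Rgr, on chromosome 14 from 37034909 to 37048964, had values of 29257 and 25127 in the subjective day pair against 27874 and 24591 in the objective day pair. Its log2 fold change was -0.05 (standard error 0.10, interval -0.29 to 0.19, limma adjusted p = 0.801), and -0.072 with the GC trend removed. Rrh, on chromosome 3 from 129804408 to 129822587, had the smallest standard error of the 9 genes in limma's fit (0.063), with 1646 and 1572 in the subjective day pair against 1588 and 1565 in the objective day pair. The conditions overlapped for both opsins. For Rrh the interval of the difference ran from -11.5 to 8.59% (limma, adjusted p = 0.813), the narrowest of the 9 genes, and its log2 fold change of -0.029 became 0.12 with the GC trend removed. The ratio of Rgr to Rrh within a sample was 17.8 and 16 in the subjective day pair against 17.6 and 15.7 in the objective day pair, and overlapped between the conditions.

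Rdh10 and Dhrs3 encode short-chain dehydrogenases that work on retinoids in opposite directions: RDH10 oxidises retinol to retinal in RPE and Müller glia, and DHRS3 reduces all-trans retinal to retinol. Rdh10 (ENSMUSG00000025921, chromosome 1, plus strand, from 16105774 to 16133734) had 5457 and 5117 in the subjective day pair against 5038 and 4539 in the objective day pair. Both objective day samples lay below both subjective day samples, with a gap of -1.55% between the nearest pair. The log2 fold change was -0.14 (standard error 0.073, limma adjusted p = 0.266), and -0.13 with the GC trend removed. Dhrs3 (ENSMUSG00000066026, chromosome 4, plus strand, from 144892827 to 144928209) had 4711 and 4190 in the subjective day pair against 4906 and 4610 in the objective day pair, with overlap. Its log2 fold change was 0.10 (standard error 0.075, limma adjusted p = 0.461) and changed sign to -0.026 with the GC trend removed. Within samples the Rdh10 to Dhrs3 ratio was 1.16 and 1.22 in the subjective day pair against 1.03 and 0.985 in the objective day pair. The ratio differed by -15.5% in objective day and did not overlap between conditions. Its exact two-sided permutation p was 0.333, the smallest that 2 samples against 2 allow. How many other gene pairs do not overlap was not counted. Transcript GC content was 46.8% for Rdh10 and 52.4% for Dhrs3, and the part of GC content in this ratio was not tested.

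Abca4 (ENSMUSG00000028125) encodes the flippase of photoreceptor discs that moves N-retinylidene-phosphatidylethanolamine so that all-trans retinal can be reduced. The gene spans chromosome 3 (plus strand) from 122044443 to 122180123, with 56 merged exon blocks. Values were 69395 and 68247 in the subjective day pair against 76058 and 71900 in the objective day pair. Both objective day samples were above both subjective day samples, the nearest pair by 3.61%. The mean was 68821 ± 812 (SD, n = 2) in subjective day against 73979 ± 2940 (SD, n = 2) in objective day, a log2 fold change of 0.10 (interval -0.13 to 0.34, limma adjusted p = 0.56). The sign depended on the scaling: with the GC trend removed it was -0.017, and with each sample scaled to rod markers it was -0.061. In that scaling the median of all genes moved by -0.16. The 9 rod markers, such as Gnat1 and Pde6b, had a median log2 fold change of 0.19 (0.03 with the GC trend removed), with 8 of 9 above 0 and 0 past the adjusted threshold in limma's test (2 at an unadjusted p under 0.05).

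Stra6 (ENSMUSG00000032327) encodes the RPE receptor that takes retinol from its plasma carrier. The gene spans chromosome 9 (plus strand) from 58063788 to 58153996. Adjusted counts were 5223 and 4428 in the subjective day pair against 6134 and 5278 in the objective day pair. The conditions did not overlap, but the lower objective day sample exceeded the higher subjective day sample by only 1.04%. Stra6 had the largest difference of the 9 genes outside the spread of its replicates, 18.3% higher in objective day (95% interval 0.351 to 39.5%, unadjusted p = 0.0464 and limma adjusted p = 0.189). Leaving out 1 sample moved its log2 fold change between 0.12 and 0.36. Without subjective day sample 1 the log2 fold change was 0.36 with an adjusted p of 0.0302, and with samples scaled to Müller glia markers, a choice made after seeing the data, it was 0.33 with an adjusted p of 0.0467 (both limma). Stra6 has a transcript GC content of 56.3%, the highest of the 9, and with the GC trend removed its log2 fold change was 0.089 (limma, adjusted p = 0.73). Against Rdh10 in the same sample, Stra6 stood at 0.957 and 0.865 in the subjective day pair against 1.22 and 1.16 in the objective day pair. Stra6 was higher and Rdh10 lower in both objective day samples, so the gap in this ratio follows from them and is no separate result. Rdh10 has a GC content of 46.8%, and the part of GC content in the ratio was not tested.

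Ttr and Rbp4 encode the plasma proteins that together carry retinol in blood. Transthyretin is also made and secreted by the RPE, while RBP4 comes mainly from the liver and is made in the RPE as well. Ttr (ENSMUSG00000061808, on chromosome 18 from 20665280 to 20674321) had 31246 and 25235 in the subjective day pair against 32558 and 30915 in the objective day pair. Subjective day sample 2 stood below the other 3 samples, and the conditions overlapped. The log2 fold change was 0.18 (standard error 0.11, interval -0.085 to 0.44, limma adjusted p = 0.368), and 0.21 with the GC trend removed. Leaving out subjective day sample 1 moved it to 0.33 (limma, adjusted p = 0.0511), and leaving out subjective day sample 2 to 0.022. The ciliary epithelium, which also makes transthyretin, was followed by 4 marker genes, whose summed value was 1950 and 1785 in the subjective day pair against 2140 and 2189 in the objective day pair. Of these, Optc (opticin) was higher in objective day by 0.62 on the log2 scale (limma, adjusted p = 0.00708), and by 0.49 with the GC trend removed (limma, adjusted p = 0.0377). Without Optc the sum of the other 3 was 1403 and 1249 in the subjective day pair against 1345 and 1311 in the objective day pair, with overlap, as Col9a1 stood at -0.14 on the log2 scale, Zic1 at 0.17 and Zic2 at 0.35. None of these 3 passed in limma's test, and Zic1 and Zic2 were higher in both objective day samples. The part of this tissue in the Ttr values was not tested.

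Rbp4 (ENSMUSG00000024990, on chromosome 19 from 38116629 to 38125281) was the weakest of the 9 transcripts, with 89.9 and 168 in the subjective day pair against 112 and 107 in the objective day pair. The 2 subjective day samples differed 1.87-fold, and objective day lay between them. The log2 fold change of -0.17 had a standard error of 0.28 and an interval of -0.82 to 0.48 (limma, adjusted p = 0.747), and it was -0.32 with the GC trend removed. It ran from -0.62 to 0.28 when single samples were left out, so its direction rested on 1 sample, and without subjective day sample 2 it was 0.28. Alb, the defining transcript of liver, was below 10 in every sample, and the 2 liver plasma protein genes in the table summed to 10.5 to 14.4. The ratio of Ttr to Rbp4 was 348 and 150 in the subjective day pair against 292 and 289 in the objective day pair.

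**Figure D2:**
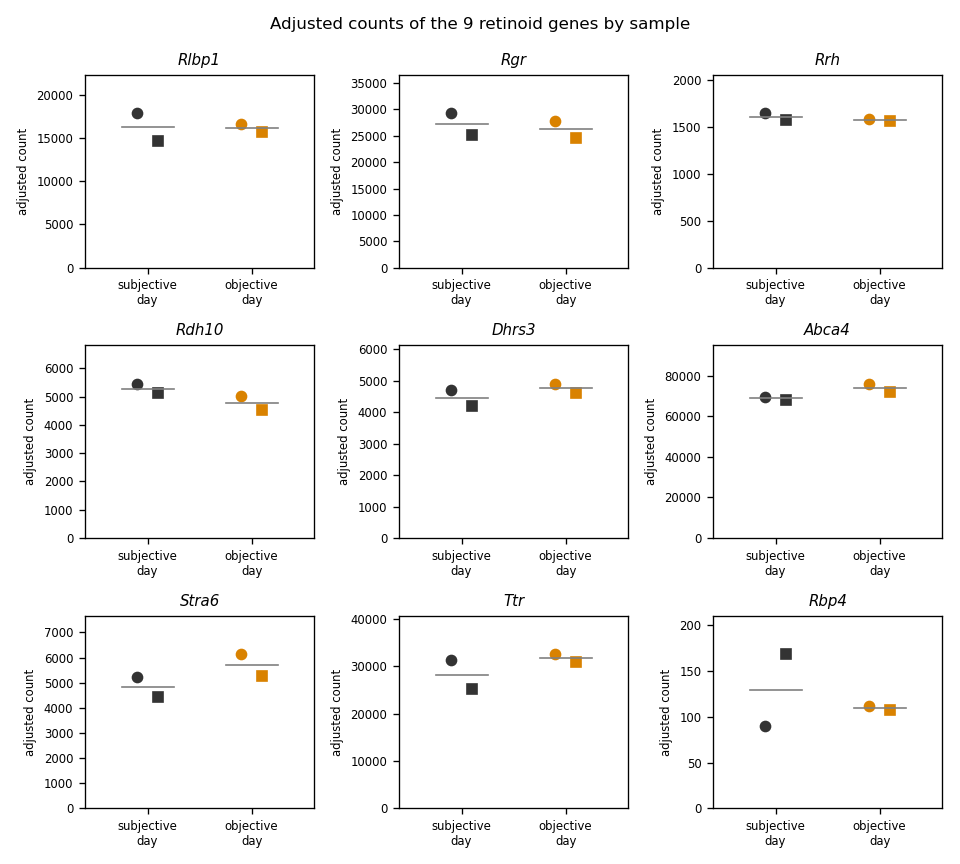
Adjusted counts (y axes from 0) of the 9 genes in subjective day (black) and objective day (orange), with circles for samples numbered 1, squares for samples numbered 2 and grey lines for means of 2 samples. Abca4 and Stra6 lie higher and Rdh10 lies lower in both objective day samples, while the other 6 genes overlap between conditions.

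The 2 conditions did not overlap for 3 of the 9 genes, Abca4 and Stra6 as higher and Rdh10 as lower in objective day. Over all genes tested the same was true of 56.1%. The members' share was thus below that of the whole table, and no test compares the 2 shares. Sample 1 lay above sample 2 in both conditions for 8 of the 9 genes, all but Rbp4, against 35.2% of all genes tested. Marker lists differed in this order of samples. It held for 7 of 7 RPE markers tested, 9 of 9 rod markers, 7 of 8 Müller glia markers, 5 of 7 pigment cell markers, 4 of 4 lens markers and 4 of 4 sclera markers. It held for 1 of 7 cone markers, 1 of 4 ciliary epithelium markers, 2 of 4 choroid endothelium markers, 0 of 3 cornea markers and 0 of 3 blood markers. The lens markers, of a tissue removed at dissection, summed to 31466 and 4293 in the subjective day pair against 38842 and 10432 in the objective day pair. RPE markers summed to 21746 and 18397 in the subjective day pair against 20760 and 18811 in the objective day pair, with Best1, an RPE channel gene, below 10 in every sample. The part of tissue content in the spread of the 9 genes was not tested.

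Scaled to the RPE markers, 0 of the 9 genes passed in limma's test and 0 had an unadjusted p under 0.05, where 3.35% of all genes tested passed. Under that scaling the log2 fold change was 0.053 for Rlbp1, -0.0004 for Rgr, 0.021 for Rrh and -0.094 for Rdh10. Stra6 stood at 0.29 (limma, adjusted p = 0.498) and Ttr at 0.23 (limma, adjusted p = 0.644). The RPE markers themselves had a median of 0.031 over 7 genes tested, of which Ermn passed as lower (-0.46, limma adjusted p = 0.0405). With the GC trend removed Ermn stood at 0.064 (limma, adjusted p = 0.87). Scaled to Müller glia markers, Rlbp1 stood at 0.088, Rgr at 0.036 and Rdh10 at -0.058. Of the 8 Müller glia markers 2 were called lower, the water channel gene Aqp4 (-0.44, adjusted p = 0.00707) and the glutamate transporter gene Slc1a3 (-0.34, adjusted p = 0.0166, both limma), while the list had a median of -0.075 and 3 of 8 above 0. With the GC trend removed neither passed (Aqp4 -0.16, adjusted p = 0.277, and Slc1a3 -0.28, adjusted p = 0.0657, both limma). Rlbp1 and Rgr, also made in these glia, did not pass.

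**Figure D3:**
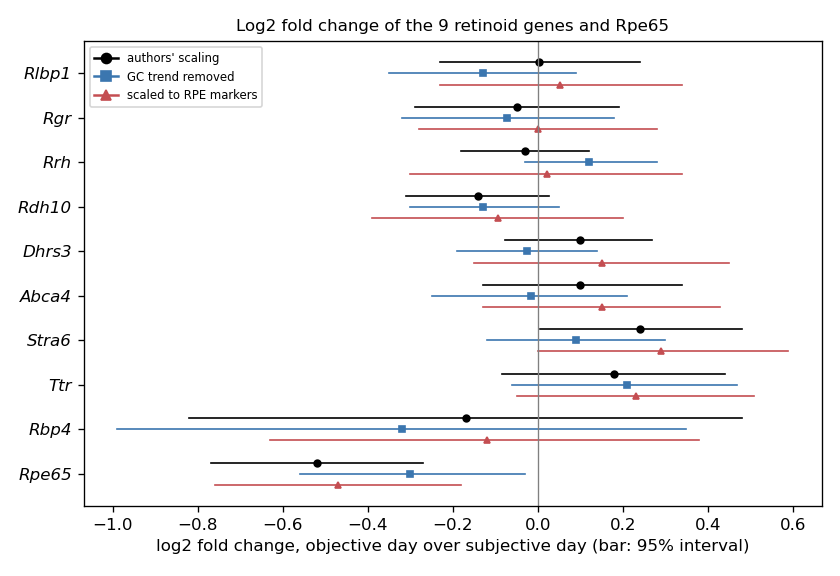
Log2 fold change of objective over subjective day (x axis) of the 9 genes and Rpe65, with 95% intervals from limma, under the authors' scaling (black circles), with the GC trend removed (blue squares) and scaled to RPE markers (red triangles). The black intervals of 8 of the 9 genes span 0, that of Stra6 starts at 0.0051, and that of Rpe65 lies wholly below 0.

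Rpe65, the retinoid isomerase of the RPE, was the visual cycle enzyme transcript that limma called lower in objective day. The 9 carriers were set against Rpe65 within each sample. The log2 fold change of Rpe65 was -0.52 (interval -0.77 to -0.27, limma adjusted p = 0.0286). The ratio of Rpe65 to Rlbp1 was 0.487 and 0.494 in the subjective day pair against 0.359 and 0.324 in the objective day pair, a difference of -30.4%. Relative to Rgr, Rpe65 stood at 0.298 and 0.288 in the subjective day pair against 0.215 and 0.208 in the objective day pair. For Stra6 the ratio was 1.67 and 1.64 in subjective day against 0.977 and 0.97 in objective day, a difference of -41%. Rpe65 was lower in objective day relative to each of 8 genes without overlap, and relative to Rbp4 the conditions overlapped. The same held for 74.5% of the 17783 other genes tested, so the count is no result about these 9 genes in particular. Each of these 8 comparisons had exact two-sided permutation p = 0.333, the smallest possible here, and they share the values of Rpe65. Rpe65 has a transcript GC content of 42.2%, below all 9 genes, which run from 43.5% for Rrh to 56.3% for Stra6. With the GC trend removed, Rpe65 stood at -0.30 (interval -0.56 to -0.03, limma adjusted p = 0.296). Beside it stood -0.13 for Rlbp1, -0.072 for Rgr, 0.12 for Rrh and 0.089 for Stra6. Limma called Rpe65 lower scaled to RPE markers (-0.47, adjusted p = 0.0496), rod markers (-0.68, adjusted p = 0.00169) and Müller glia markers (-0.43, adjusted p = 0.0284). Without a variance trend Rpe65 was not called. How much of each ratio follows GC content was not tested.

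**Figure D4:**
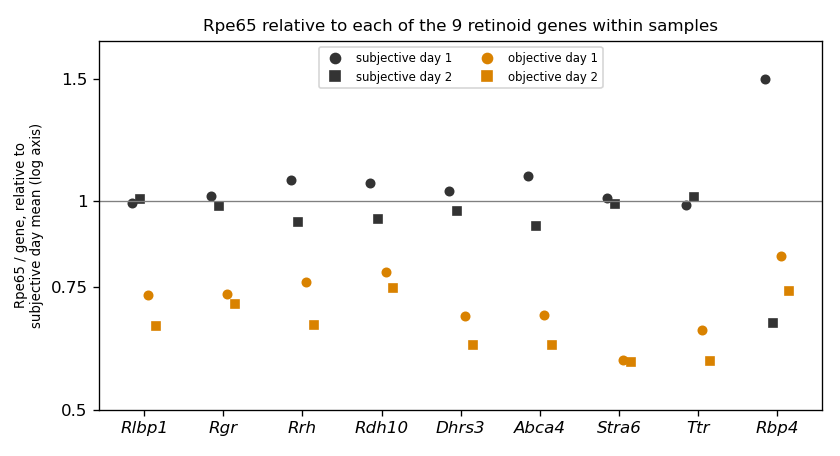
Ratio of Rpe65 to each of the 9 genes within a sample, divided by the geometric mean of the subjective day ratios of that gene (y axis, log scale), with 1 point per sample. Both objective day points lie below both subjective day points for 8 genes, and for Rbp4 the subjective day samples lie on either side of the objective day samples.

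Other retinoid genes were counted from a list of 48 chosen by function, of which 45 were in the table and 43 could be tested. Limma called 3 of the 43 lower in objective day and 0 higher, where 7.45% and 1.06% of all genes were called, and 12 of the 43 had an unadjusted p under 0.05. The 3 were Rpe65, Aldh1a1, which encodes a retinal dehydrogenase that makes retinoic acid, and Adh7, which encodes an alcohol dehydrogenase of epithelia. Adh7 had 230 and 249 in the subjective day pair against 45 and 92.1 in the objective day pair (log2 fold change -1.88, limma adjusted p = 0.0126). Of the 4 cornea markers listed, Krt12 lay below the filter on low values and could not be tested. The other 3 were called lower, among them Krt5 (-1.44, limma adjusted p = 0.0165). The part of corneal tissue in the Adh7 values was not tested. Aldh1a1 had 1239 and 1201 in the subjective day pair against 1016 and 862 in the objective day pair (log2 fold change -0.38, limma adjusted p = 0.0459). With the GC trend removed, Adh7 stood at -1.63 (limma, adjusted p = 0.0546) and Aldh1a1 at -0.34 (limma, adjusted p = 0.147), 0 of the 43 were called by limma and 8 had an unadjusted p under 0.05, against 233 and 2492 over all genes. Without subjective day sample 1, limma called 9 of the 43, 6 lower and 3 higher, and over all genes 2557 in place of 1514. Without objective day sample 2 it called 3 (Adh7, Rbp2 and Adh1), and Rpe65 and Aldh1a1 were not among them.

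By role, the 9 visual cycle enzymes had a median log2 fold change of 0.084, with 1 called. Rdh5 (0.35, adjusted p = 0.0921) and Rdh12 (0.38, adjusted p = 0.0529), which encode the RPE 11-cis and the photoreceptor all-trans retinol dehydrogenase, lay above 0 without passing in limma's test. Limma called Rdh12 higher with TMM scaling, with median of ratios scaling, scaled to Müller glia markers and without subjective day sample 1, and called Rdh5 higher under the last pair of these settings. With the GC trend removed Rdh12 stood at 0.35 (limma, adjusted p = 0.147) and Rdh5 at 0.21 (limma, adjusted p = 0.4). Rdh8 (0.11, adjusted p = 0.282) and Rdh11 (0.0006, adjusted p = 0.998), further retinol dehydrogenases, did not pass in limma's test either. Lrat, which encodes the acyltransferase that stores retinol as ester in the RPE, had -0.14 (limma, adjusted p = 0.398), and 0.10 with the GC trend removed. The 10 retinoid binding and uptake genes had a median of 0.15 (0.0066 with the GC trend removed) with 0 called by limma and 3 at an unadjusted p under 0.05. Cd36, a fatty acid and carotenoid transporter gene named after its values were seen, stood at -0.78 without passing and at -0.28 with the GC trend removed, and limma called it lower scaled to RPE markers (-0.73, adjusted p = 0.00353), scaled to rod markers (-0.94, adjusted p = 0.0226) and without either subjective or objective day sample 1. Among them Rbp3, the carrier of the interphotoreceptor matrix, had a log2 fold change of 0.18 (limma, adjusted p = 0.55), and 0.03 with the GC trend removed.

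**Figure D5:**
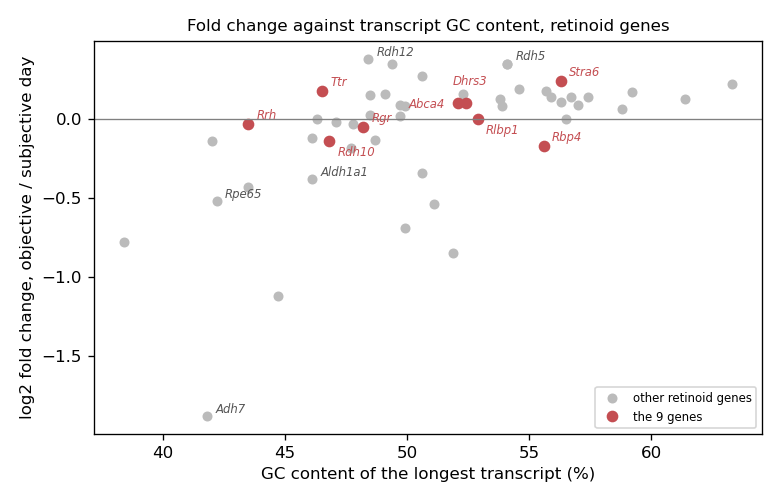
Log2 fold change of objective over subjective day (y axis) against the GC content of the longest transcript in percent (x axis) for the 9 genes (red) and 43 other retinoid genes (grey). The 9 genes lie between -0.17 and 0.24 over GC contents of 43.5 to 56.3%, and Rpe65 (42.2%) and Adh7 (41.8%) lie lower. Other low points lie at low and at middle GC contents, among them Cd36 (-0.78 at 38.4%), Rdh16 (-1.12 at 44.7%), Aldh1a3 (-0.69 at 49.9%) and Rbp2 (-0.85 at 51.9%).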

How the data were processed

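RNA-seq was analysed for 2 samples of each condition, all run on 1 lane. By the stated methods, the authors selected poly-A RNA, aligned reads to an Ensembl mouse release with Tophat 2.0.9 and Bowtie2 2.1.0, counted them with HTSeq and compared conditions with edgeR. Their filter, normalization and strand setting were not given in the sources used here. The deposited signal values carry decimals and have nearly equal column totals, so they are taken as gene counts that the authors adjusted to a common size, by a method not given in the sources used here. The deposited log2 fold change, mean expression and p-value columns hold the authors' own comparison and were not used.

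Genes reaching 10 in 2 or more samples entered as log2(value + 1) and were tested with limma 3.58.1 in R 4.3.3, with a variance prior that follows mean expression and Benjamini-Hochberg adjustment at 0.05 over all genes tested. Intervals are 95% intervals from limma for single genes. GC content and exon length came from GENCODE M21 on GRCm38, with a GC value for 98.6% of genes tested. No other annotated gene shares exon bases with any of the 9 genes. GC trends were removed in each sample by local regression with a span of 0.3. The code of the fits was run on simulated counts with the same dispersion for every gene, which is no test of these samples. The 9 genes were named by a list, and all are reported. Of the other retinoid genes, those called and the main visual cycle genes are named. Members and lists were chosen with earlier results of these data known. Sequences are RefSeq's. The symbols Cyp27c1, Rdh7, Bco1, Apoa2 and Serpina1a were not matched in the table. Alternatives covered scaling, filter, pseudocount, variance prior, replicate block, GC trend and each sample left out. Figures were drawn with matplotlib 3.10.9.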

Additional observations from a re-analysis of the deposited data

How the results depend on the processing

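Of 153 values of the 9 genes under alternative settings, 128 kept their direction and their side of the threshold, 22 changed sign and 3, all of Stra6, passed it. Log2 fold changes of changed sign, none past the threshold, were for Rlbp1 -0.13 with the GC trend removed (also with the replicate block), -0.16 scaled to rod markers, -9.2e-05 with TMM scaling and -0.00075 with median of ratios scaling. They were for Rrh 0.12 with the GC trend removed (also with the block), 0.021 scaled to RPE and 0.057 to Müller glia markers, and for Rgr 0.036 scaled to Müller glia markers. Abca4 and Dhrs3 stood at -0.017 and -0.026 with the GC trend removed, with or without the block, and at -0.061 and -0.067 scaled to rod markers. With each sample left out in turn, values ran from -0.14 to 0.15 for Rlbp1, -0.16 to 0.059 for Rgr, -0.062 to 0.0039 for Rrh and -0.62 to 0.28 for Rbp4, and without a change of sign from -0.22 to -0.069 for Rdh10, 0.014 to 0.18 for Dhrs3, 0.063 to 0.14 for Abca4, 0.12 to 0.36 for Stra6 and 0.022 to 0.33 for Ttr. The cause was not tested.

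Limma called 0 of the 9 genes, 1 (Stra6) scaled to Müller glia markers, an alternative added after seeing the data, and 0 to 1 with a sample left out. Samples of the same number deviated together (correlation 0.319 across genes), but the labels state no shared origin. In the fit blocked on replicate number, limma called 1 of the 9 (Stra6, adjusted p = 0.00843, and 0.267 with the GC trend removed as well), 9 of the other retinoid genes in place of 3 (the same 9 with the GC trend removed, among them Rpe65 as lower and Rdh12 and Rdh5 as higher), and 3613 genes in all in place of 1514. The other retinoid genes called were 0 with the GC trend removed, 0 without a variance trend (7 at an unadjusted p under 0.05), 5 scaled to rod markers and 3 to 9 with a sample left out. Over all genes limma called 1514 (1325 lower and 189 higher), 233 with the GC trend removed (152 lower and 81 higher), 595 scaled to RPE markers, 0 without a variance trend (3586 at an unadjusted p under 0.05) and 664 to 2557 with a sample left out. The split was 1674 lower and 28 higher scaled to rod markers, and 581 lower and 584 higher scaled to Müller glia markers. The number of samples limits precision.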

Other observations

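The 6 retinoic acid receptor genes tested had a median log2 fold change of 0.11, with 5 of 6 above 0 and 0 called by limma (1 at an unadjusted p under 0.05). The median became -0.052 once GC trends were removed. The 16 genes tested for retinal and retinol oxidation or reduction and for retinoic acid turnover had a median of -0.069, with 2 called lower and 10 of 16 below 0. Over all 17784 genes tested, 7.45% were called lower and 8436 lay below 0. With the GC trend removed the median of the 16 genes was -0.11, and neither of the 2 calls, Adh7 and Aldh1a1, remained.

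Among the other marker lists, limma called 0 of 7 cone markers, 0 of 7 pigment cell markers, 0 of 4 choroid endothelium markers and 0 of 4 lens markers, of which 1, 2, 1 and 0 had an unadjusted p under 0.05. Of the sclera markers 1 of 4 was called lower (Lum, -0.74), while Col1a1 stood at 0.40 without passing, and of the blood markers 2 of 3 were called higher (Hba-a1, 0.67, and Hbb-bs, 0.37). Lum (adjusted p = 0.287) and Hbb-bs (adjusted p = 0.0782) no longer passed in limma's test with the GC trend removed, while the pigment cell genes Dct (0.67, adjusted p = 0.0269, from 0.38) and Tyr (0.68, adjusted p = 0.0315, from -0.15) did.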
